A study of Mus musculus with 6 samples.

Results

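The 8 genes described here encode ADP-ribosyltransferases of the PARP family that are linked to the interferon response, with their founding relative Parp1, and Dtx3l, the ubiquitin ligase partner of PARP9. They were chosen by name (Parp1, Parp9, Parp10, Parp11, Parp12, Parp14, Dtx3l and Zc3hav1), and all 8 were found among the 28789 genes of the deposited expression table. Their Ensembl identifiers there are ENSMUSG00000026496 (Parp1), ENSMUSG00000022906 (Parp9), ENSMUSG00000063268 (Parp10), ENSMUSG00000037997 (Parp11), ENSMUSG00000038507 (Parp12), ENSMUSG00000034422 (Parp14), ENSMUSG00000049502 (Dtx3l) and ENSMUSG00000029826 (Zc3hav1). RNA came from TCMK1, an established mouse renal tubular epithelial cell line, in 2 groups of 3 libraries. Both groups had been given angiotensin II (Ang II), the pressor peptide of the renin-angiotensin system. The first group is labelled as control in genotype and the other as overexpressing YOD1, an OTU-family deubiquitinase. The peptide's dose and time, the vector and the number of clones are not given in the sources used here, so what limits these cells as a model of YOD1 excess is known only in part. The series asks which pathways YOD1 regulates in such cells, and the comparison below gives the values of these genes.

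PARP enzymes take ADP-ribose from NAD+ and attach it to proteins. PARP1 builds long poly-ADP-ribose chains at broken DNA, whereas most of the interferon-linked members attach a single ADP-ribose unit. PARP9 and ZC3HAV1 (also called ZAP or PARP13) carry PARP domains with little or no transferase activity of their own: PARP9 works in a complex with the ubiquitin ligase DTX3L, and ZC3HAV1 binds foreign RNA rich in CpG and sends it to decay. Interferon receptors signal through JAK kinases, and many of the promoters they switch on hold the interferon-stimulated response element (ISRE). In the deposited annotation, 7 of the 8 genes carried the term NAD+ ADP-ribosyltransferase activity, which 22 genes hold, and 5 carried protein mono-ADP-ribosylation, which 11 hold.

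Values are FPKM (fragments scaled by transcript length and by the mapped fragments of the library), which sum to 314172 to 352209 per library, and the read depth behind them is unknown. Yod1, the check on the labels, stood at 0.842, 0.757 and 0.684 FPKM in the controls and at 1.73, 7.56 and 1.86 FPKM in YOD1 libraries 1, 2 and 3, so library 2 held the most. Yod1 itself did not pass the test between groups (log2 fold change 1.205 on log2(FPKM + 1), limma adjusted p = 0.141), so a gene that fails it here can still differ. The ribosomal sequence Rn18s-rs5 took 0.421% to 0.733% of all FPKM in control libraries and 2.17% to 3.90% in YOD1 libraries. With rRNA genes left out and the libraries rescaled, limma again called 0 of the members, and the log2 fold change of Parp12 was 1.04 (against 1.08). Of the 10 tubular epithelial markers all were detected, with summed levels of 736 to 850 FPKM in the controls and 805 to 1061 FPKM in the YOD1 libraries. The summed leukocyte markers, 8 of 9 in the table, lay at 25.3 to 35.9 and 28.8 to 39.6 FPKM. Of these, Ptprc, the pan-leukocyte marker, did not exceed 0.0708 FPKM and Cd3e was listed at 0 in all YOD1 libraries, while Lyz2, a lysozyme gene, was higher in all 3 YOD1 libraries (10.52 to 18.7 FPKM against 1.47 to 9.04 FPKM). The macrophage markers Cd68 and Csf1r did not share that direction in every library, with means of 18.2 and 4.39 FPKM in the controls and 13.5 and 4.59 FPKM in the YOD1 libraries. Endothelial markers summed to 18.1 to 20.1 and 17.7 to 27.7 FPKM, and fibroblast markers to 11.1 to 12.8 and 5.602 to 11.4 FPKM, for controls and YOD1 libraries. The endothelial sums were mostly Egfl7 (15.9 to 25.6 FPKM over all libraries), while Pecam1, Cdh5, Kdr and Tek did not exceed 0.932 FPKM. The fibroblast sums were mostly Col1a1 and Pdgfrb, while Pdgfra, Dcn and Lum did not exceed 0.618 FPKM. The labels do not say whether the 3 libraries of a group came from separate cultures, so p-values here cover the variation among these libraries alone, which could be technical. In bulk RNA, fewer expressing cells and less RNA per cell cannot be told apart.

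No gene of the 8 passed the test between groups, and the clearest feature of their values was a single library. YOD1 library 2 was the highest of all 6 libraries for 7 of the 8 genes, all except Parp1, where 16.8% of all genes in the table have their highest value there. Of the 6 genes that reached 1 FPKM in at least 3 libraries and were tested, 5 had their highest value in that library, against 12% of the 11483 tested genes. In limma on log2(FPKM + 1), at a Benjamini-Hochberg adjusted p of 0.05, 0 of the 6 were called, either higher or lower, against 0.479% of all tested genes (0.444% higher and 0.0348% lower). At an unadjusted p under 0.05 limma gave 1 of 6, Parp12, which was higher, against 20.9% of all tested genes (7.87% higher). Parp11 and Parp14 lay under the filter and were tested only with no filter on low values, where limma called 0% of genes and the adjusted p was 0.782 and 0.508. The median log2 fold change over the 8 genes was 0.14 with all libraries and -0.06 without YOD1 library 2. Over the 6 tested members it was 0.12 and -0.20, while it was -0.10 and -0.12 over all tested genes. Of the 8 genes 6 had a log2 fold change above 0, and of the 6 tested members 4 did, against 36.4% of tested genes. Without YOD1 library 2 the 8 genes were 3 above 0 and 5 below, beside 36.6% and 63.4% of tested genes, which do not include Parp11 and Parp14.

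**Figure D1:**
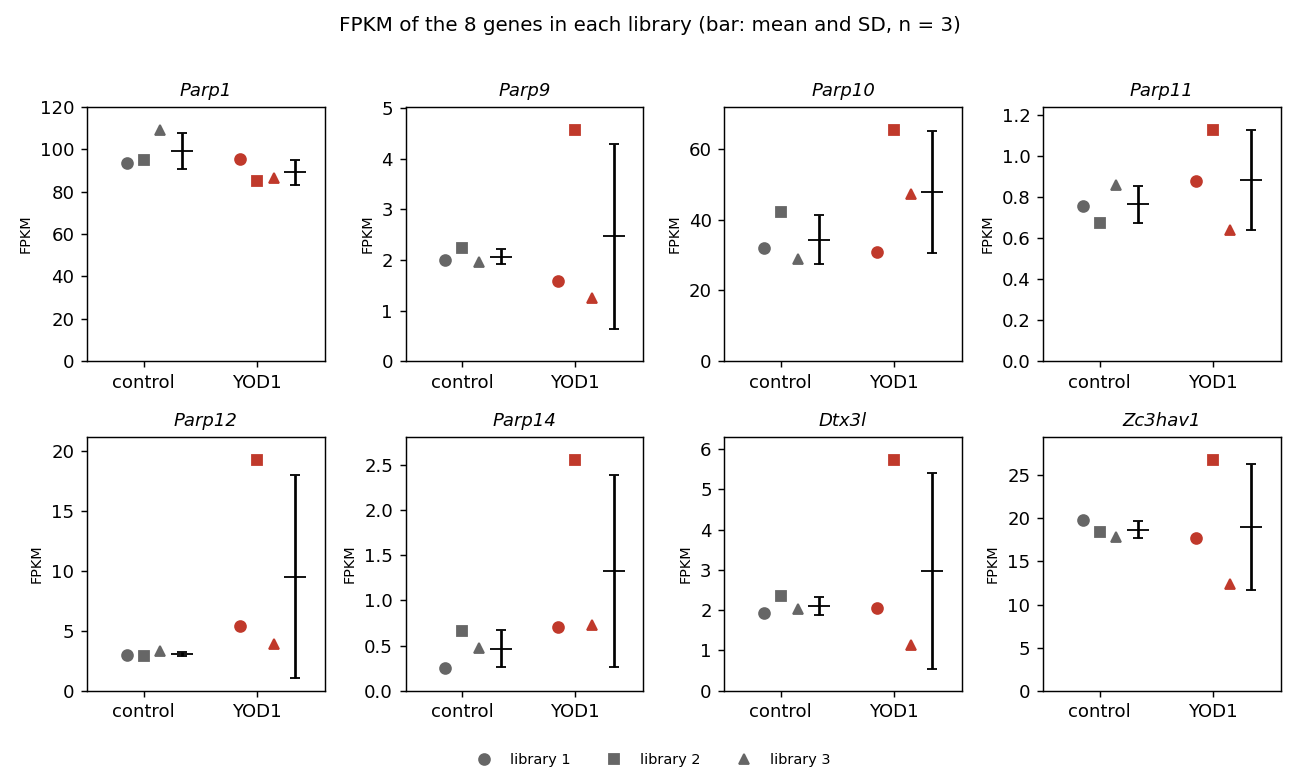
Points show the FPKM of each of the 8 genes (1 panel per gene, linear axis from 0) in the 3 control and 3 YOD1 libraries, with the mean and SD (n = 3) beside each group. YOD1 library 2, the red square, is the highest point in all panels except Parp1, and Parp12 and Parp14 have all 3 YOD1 libraries above all 3 controls.

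Parp1 was by far the most abundant, and the order of levels in the controls was Parp1 (99.2 FPKM), Parp10 (34.3 FPKM), Zc3hav1 (18.7 FPKM), Parp12 (3.08 FPKM), Dtx3l (2.10 FPKM), Parp9 (2.06 FPKM), Parp11 (0.764 FPKM) and Parp14 (0.463 FPKM), as means of 3 libraries on a scale per transcript length. Dtx3l and Parp9 were the only neighbours in that order whose control ranges overlapped.

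Parp12, a mono-ADP-ribosyltransferase with CCCH zinc fingers that resides at the Golgi and in stress granules, showed the widest difference of the 8. It stood at 3.02, 2.93 and 3.28 FPKM in the controls and at 5.39, 19.3 and 3.92 FPKM in YOD1 libraries 1, 2 and 3. All YOD1 values lay above all controls, but library 2 was at 6.27 times the control mean while libraries 1 and 3 were at 1.75 and 1.27 times. The group means were 3.08 ± 0.182 and 9.54 ± 8.49 FPKM (SD, n = 3 each). Its log2 fold change, taken on log2(FPKM + 1), was 1.08 (SE 0.43, 95% interval 0.12 to 2.04, limma adjusted p = 0.206), higher in 3 of 3 libraries. Without YOD1 library 2 it was 0.46 (limma adjusted p = 0.193). Of all tested genes, 9.77% had every YOD1 library above every control.

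Parp14, a large mono-ADP-ribosyltransferase with macrodomains and a known coactivator of STAT6, had a like pattern at a much lower level. It was listed at 0.253, 0.662 and 0.474 FPKM in the controls and at 0.702, 2.56 and 0.723 FPKM in YOD1 libraries 1, 2 and 3. The groups did not overlap, though YOD1 library 1 exceeded control 2 by little. This also held for 6.95% of all genes in the table, and Parp14 was not among the genes that passed the filter. Its log2 fold change was 0.59 (SE 0.32 in limma with no filter) and 0.24 without YOD1 library 2. On log2(FPKM + 0.1) it was 1.17, since the added 1 FPKM shrinks the change of a gene this low.

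Parp9 and Dtx3l, the partners of the PARP9-DTX3L ubiquitin ligase, were higher in YOD1 library 2 alone. Parp9 stood at 1.99, 2.24 and 1.96 FPKM in the controls and at 1.58, 4.57 and 1.25 FPKM in YOD1 libraries 1, 2 and 3. Dtx3l stood at 1.93, 2.36 and 2.02 FPKM in the controls and at 2.06, 5.73 and 1.13 FPKM in YOD1 libraries 1, 2 and 3. For both genes library 2 was above all controls and library 3 below all controls, and library 1 of Parp9 was below them too, so the groups overlapped and the direction depended on 1 library. The log2 fold change of Parp9 was 0.06 (95% interval -0.61 to 0.73, limma adjusted p = 0.925) and -0.34 without YOD1 library 2. That of Dtx3l was 0.19 (95% interval -0.59 to 0.97, limma adjusted p = 0.772) and -0.28 without YOD1 library 2. Both intervals span values above and below 0.

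The levels of Parp9 and Dtx3l were close to each other in the controls, and Parp9 was the lower in YOD1 libraries 1 and 2. The FPKM ratio of Parp9 to Dtx3l was 1.03, 0.949 and 0.969 in the controls and 0.768, 0.797 and 1.11 in YOD1 libraries 1, 2 and 3. The ratio of Parp14 to Dtx3l was 0.131, 0.281 and 0.234 in the controls and 0.341, 0.447 and 0.640 in the YOD1 libraries, which did not overlap. This ratio rests on low values of Parp14, 0.253 to 0.723 FPKM outside YOD1 library 2. Its highest value is that of YOD1 library 3, where Dtx3l was lowest (1.13 FPKM). The difference in this ratio was not tested, and how often ratios of other genes do not overlap was not counted. In the RefSeq annotation of GRCm38.p6, Parp14, Dtx3l and Parp9 lie side by side on chromosome 16. The genes next to this trio on either side did not peak in YOD1 library 2. Hspbap1 stood at 6.17 to 7.21 FPKM in the controls and at 8.80, 8.19 and 9.44 FPKM in YOD1 libraries 1, 2 and 3. Kpna1, an importin gene, stood at 2.46 to 2.88 FPKM in the controls and at 2.32, 2.78 and 1.305 FPKM in the YOD1 libraries. Wdr5b, 1 gene further on, did have its highest value there (2.70 FPKM), close to control 1 (2.65 FPKM). Exons of Dtx3l and Parp9 overlap on opposite strands by 458 bp in GENCODE M21, which is 8% of the exon length of Dtx3l and 9.4% of that of Parp9. The library strand is not stated, so fragments from that overlap cannot be assigned to one of them with certainty.

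Zc3hav1, the CpG-binding antiviral protein, stood at 19.8, 18.5 and 17.8 FPKM in the controls and at 17.7, 26.8 and 12.3 FPKM in YOD1 libraries 1, 2 and 3. Library 2 was the highest of the 6 and library 3 the lowest, with library 1 just below the controls. The log2 fold change was -0.05 (95% interval -0.56 to 0.47, limma adjusted p = 0.925), and it was 0.05 with median-ratio scaling, 0.19 after length and GC correction and -0.32 without YOD1 library 2. Of 13 tested cofactors of ZAP (the list holds 14 genes, among them the exosome and decapping genes), 0 passed limma, against 0.479% of all tested genes. At an unadjusted p under 0.05 in limma 3 were higher and 2 lower, against 20.9% of all tested genes (7.87% higher). The median log2 fold change was 0.13 with all libraries and 0.00 without YOD1 library 2. Exosc3, a cap subunit of the RNA exosome, stood at 11.6, 10.1 and 9.97 FPKM in the controls and at 19.9, 26.3 and 13.0 FPKM in the YOD1 libraries (log2 fold change 0.79, limma adjusted p = 0.124). Ddx17, an RNA helicase, stood at 73.2, 73.3 and 53.6 FPKM in the controls and at 49.4, 47.6 and 34.3 FPKM in the YOD1 libraries (log2 fold change -0.60, limma adjusted p = 0.132). N4bp1, an endoribonuclease related to KHNYN, was at 5.24 to 5.45 FPKM in the controls and at 3.85, 5.58 and 2.16 FPKM in the YOD1 libraries, so YOD1 library 2 was again above the other YOD1 libraries.

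Parp10, a mono-ADP-ribosyltransferase first found as a partner of MYC, came next to Parp1 in abundance. It stood at 32.0, 42.2 and 28.8 FPKM in the controls and at 30.8, 65.3 and 47.4 FPKM in YOD1 libraries 1, 2 and 3. Libraries 2 and 3 lay above all controls and library 1 among them. The log2 fold change was 0.42 (SE 0.25, 95% interval -0.14 to 0.98, limma adjusted p = 0.338), and 0.17 without YOD1 library 2. Its exons share 4.8% of their length with the cytoskeletal linker gene Plec on the same strand, which stood at 32.6 to 49.1 FPKM in the controls and 41.4 to 50.2 FPKM in the YOD1 libraries, so a part of its fragments could belong to either gene.

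Parp11, a mono-ADP-ribosyltransferase of the nuclear envelope, was low in all libraries. It was listed at 0.758, 0.675 and 0.858 FPKM in the controls and at 0.878, 1.13 and 0.638 FPKM in YOD1 libraries 1, 2 and 3. The groups overlapped, and the log2 fold change was 0.09 with all libraries and -0.01 without YOD1 library 2.

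Promoter windows of RefSeq (GRCm38.p6, 250 bases before to 50 after an annotated start) were present for 5 of the 8 genes, with 2 starts for Parp11. They were searched on both strands for the ISRE letters (GAAA, 2 bases of any kind, GAAA) and for the STAT-binding GAS letters TTCNNNGAA. The only member with a match was Parp11, at its upstream start, and Parp12, which had the widest expression difference, had none. Both are shown 5′ to 3′ on the gene's strand for the 250 bases before the start, with matched letters in capitals.
Parp11: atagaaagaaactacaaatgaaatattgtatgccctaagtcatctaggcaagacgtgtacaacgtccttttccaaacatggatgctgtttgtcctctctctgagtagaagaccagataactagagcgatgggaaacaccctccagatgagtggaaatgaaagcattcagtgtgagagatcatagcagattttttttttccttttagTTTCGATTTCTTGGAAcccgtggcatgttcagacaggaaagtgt
Parp12: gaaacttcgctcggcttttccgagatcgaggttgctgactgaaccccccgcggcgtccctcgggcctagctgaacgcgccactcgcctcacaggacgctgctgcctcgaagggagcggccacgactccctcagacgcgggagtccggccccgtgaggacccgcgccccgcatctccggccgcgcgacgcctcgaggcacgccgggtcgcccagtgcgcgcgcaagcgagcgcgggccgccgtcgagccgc
The Parp11 stretch is chr6:127446590-127446839 on the plus strand and the Parp12 stretch is chr6:39118350-39118599 on the minus strand. In Parp11 the ISRE letters (TTTCGATTTC, minus orientation) run from position -44 to -35 relative to the start and the GAS letters (TTCTTGGAA) from -37 to -29, so they share 3 bases. The Parp12 stretch holds 41 CG dinucleotides, against a median of 6 over all 32851 windows. ISRE letters occurred in 3.44% and GAS letters in 8.30% of all windows, and in 44.4% and 22.2% of the 27 windows of the interferon-stimulated reference genes. The windows of Dtx3l, Parp1 and Zc3hav1 and the downstream start of Parp11 held neither, which says only that these letters are not in these windows. A match is a description of letters and shows no binding.

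Parp1, the nuclear enzyme of DNA break signalling, was the exception among the 8. It stood at 93.4, 95.05 and 109 FPKM in the controls and at 95.7, 85.2 and 86.5 FPKM in YOD1 libraries 1, 2 and 3, and library 2 was the lowest of the 6. Group means were 99.2 ± 8.64 and 89.1 ± 5.73 FPKM (SD, n = 3 each), with overlapping groups. The log2 fold change was -0.15 (95% interval -0.43 to 0.13, limma adjusted p = 0.485), the narrowest interval of the 6 tested genes. Among 13 tested repair partners of PARP1, such as Xrcc1 and Lig3, 0 passed limma, against 0.479% of all tested genes. An unadjusted p under 0.05 in limma was found for 0 of them, against 20.9% of all tested genes. Their median log2 fold change was -0.09, beside -0.10 over all tested genes. YOD1 library 2 was the highest library for 0 of the 13, against 12% of all tested genes. The largest differences were those of Aplf (-0.24), a histone chaperone of break repair, Hpf1 (-0.22), which turns PARP1 towards serine, and Tdp1 (-0.21), which frees trapped topoisomerase, with limma adjusted p from 0.386 to 0.410.

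**Figure D2:**
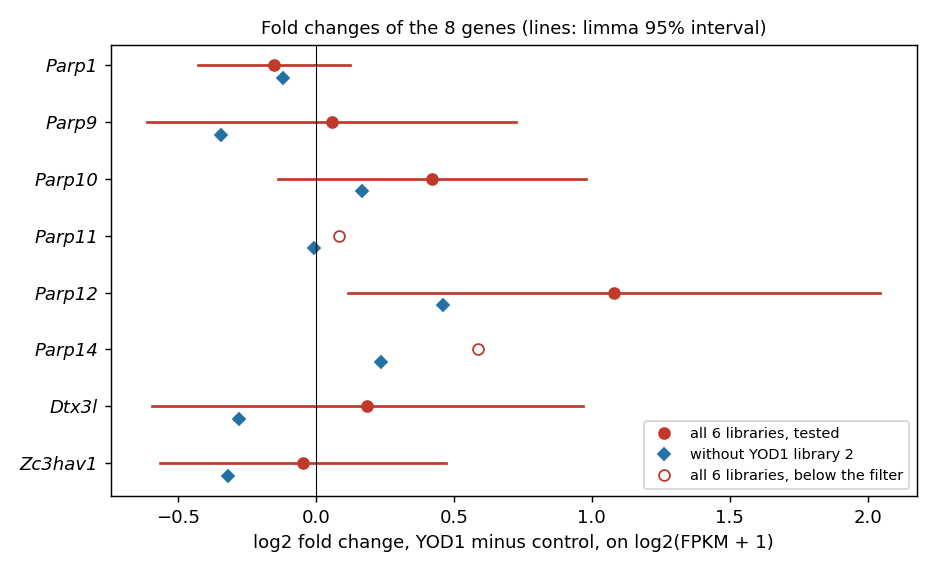
Red circles give the log2 fold change (YOD1 minus control, log2(FPKM + 1) scale) with the limma 95% interval for the 6 tested genes, open circles those of the 2 genes below the filter, and blue diamonds the value without YOD1 library 2. Only the interval of Parp12 stays above 0, and the diamonds of Parp9, Parp11, Parp12, Parp14 and Dtx3l lie to the left of their circles, as do those of Parp10 and Zc3hav1.

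YOD1 library 3 was low for Parp9, Dtx3l and Zc3hav1, and these low values moved when libraries were corrected for transcript length and GC content. The longest annotated transcript was 3231 to 7417 bp in all 8 genes, above the median of 3018 bp over the tested genes. Relative to the control mean, on the log2(FPKM + 1) scale, Parp9, Dtx3l and Zc3hav1 lay at -0.44, -0.54 and -0.56 in library 3, where the median over all tested genes was -0.18. After each library was corrected for length and GC trends over all tested genes, the same values were -0.08, 0.03 and -0.03. The values of library 2 hardly moved, from 0.86, 1.12 and 0.50 to 0.88, 1.17 and 0.54 for the same genes. For Parp12 the differences were 0.65, 2.32 and 0.27 in YOD1 libraries 1, 2 and 3 as deposited, and 0.68, 2.34 and 0.45 after correction. For Parp14 they were 0.23, 1.29 and 0.25, and after correction 0.42, 1.34 and 0.89. After correction all YOD1 libraries lay above all controls for 3 of the 8 genes (Parp11, Parp12 and Parp14). Of these only Parp12 was among the tested genes, and 14% of the tested genes with annotated lengths had their groups apart in that direction. The corrected log2 fold change was 1.16 for Parp12 and 0.44 for Dtx3l (limma adjusted p = 0.167 and 0.380). In that setting limma called 0 of the 6 tested members, beside 26 genes higher and 7 lower among 11386 tested genes.

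**Figure D3:**
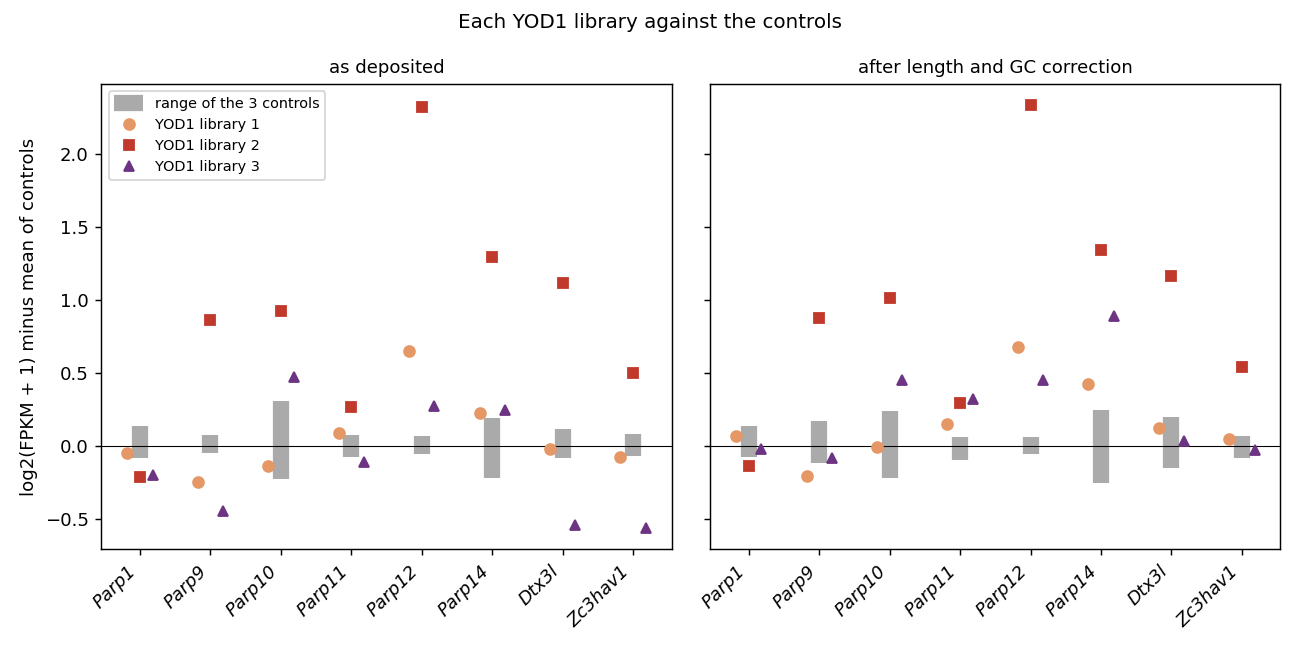
Each point is the difference of 1 YOD1 library from the mean of the controls on the log2(FPKM + 1) scale, and grey bars span the 3 controls, as deposited (left) and after correction for transcript length and GC content (right). Library 2 stands at 0.27 to 2.32 for all genes but Parp1 on the left, and the low triangles of library 3 for Parp9, Dtx3l and Zc3hav1 move to between -0.08 and 0.03 on the right.

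The other PARP family genes had their highest value in YOD1 library 2 for 2 of 9 genes (Tnks and Parp16), against 12% of all tested genes. Of the 9 such genes, all tested, 8 had a log2 fold change below 0 and 6 had every YOD1 library below every control, where 19.1% of all tested genes did. The median log2 fold change was -0.49, and 0 passed limma, against 0.479% of all tested genes. At an unadjusted p under 0.05 in limma 4 were lower and 0 higher, against 20.9% of all tested genes (7.87% higher). Parp2, which shares the DNA break role of PARP1, stood at 15.5, 14.1 and 15.8 FPKM in the controls and at 10.4, 11.2 and 9.83 FPKM in YOD1 libraries 1, 2 and 3 (log2 fold change -0.49, limma adjusted p = 0.116). Parp3, another DNA-dependent member, stood at 7.59, 7.05 and 5.15 FPKM in the controls and at 4.72, 4.64 and 3.25 FPKM in the YOD1 libraries (log2 fold change -0.54, limma adjusted p = 0.172). Tiparp, a mono-ADP-ribosyltransferase induced by the aryl hydrocarbon receptor, stood at 1.69, 1.495 and 1.64 FPKM in the controls and at 0.629, 1.24 and 0.614 FPKM in the YOD1 libraries (log2 fold change -0.53, limma adjusted p = 0.144). These 3 genes were lower in 3 of 3 libraries, without a call. Parp4, the vault PARP, lay at 6.59 to 8.52 FPKM in the controls and at 4.14, 6.32 and 3.996 FPKM in the YOD1 libraries (log2 fold change -0.53). The tankyrase gene Tnks2 lay at 9.24 to 11.8 FPKM in the controls and at 8.34, 9.44 and 3.61 FPKM in the YOD1 libraries (log2 fold change -0.54). The median of the 9 genes was -0.24 after length and GC correction and -0.20 without YOD1 library 3. After that correction the groups stayed apart for 3 of the 9 (Parp2, Parp3 and Tiparp), beside 15% of the tested genes.

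**Figure D4:**
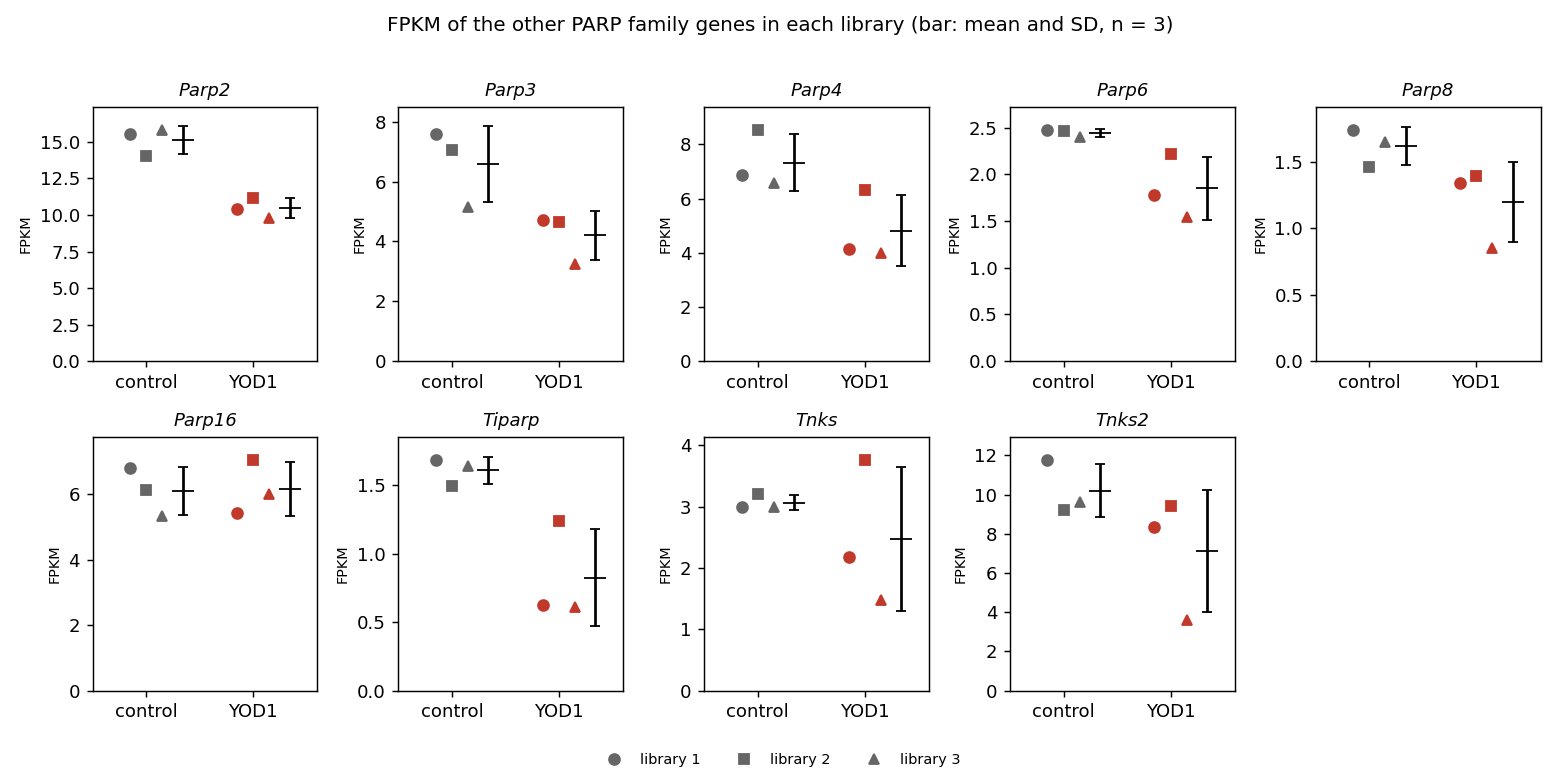
Points show the FPKM of the 9 other PARP family genes in the 3 control and 3 YOD1 libraries (linear axes from 0), with mean and SD (n = 3). All YOD1 points lie below all control points for Parp2, Parp3, Parp4, Parp6, Parp8 and Tiparp, and Tnks and Parp16 have their highest value in YOD1 library 2.

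Genes that remove or read ADP-ribose differed in both directions, 6 above 0 and 6 below. Of 12 tested erasers, readers and macrodomain genes 0 passed limma, against 0.479% of all tested genes, and the median log2 fold change was 0.02. At an unadjusted p under 0.05 in limma 2 were higher and 0 lower, against 20.9% of all tested genes (7.87% higher). Macrod1, a mono-ADP-ribose hydrolase, stood at 4.79, 4.72 and 7.26 FPKM in the controls and at 10.1, 11.03 and 10.9 FPKM in YOD1 libraries 1, 2 and 3. This was even among the YOD1 libraries and above all controls (log2 fold change 0.85, SE 0.18), with a limma adjusted p of 0.0759. Nudt5, which cleaves free ADP-ribose, stood at 17.4 to 21.9 FPKM in the controls and 24.7 to 25.7 FPKM in the YOD1 libraries (log2 fold change 0.35, limma adjusted p = 0.181). Parg, the main hydrolase of poly-ADP-ribose chains, stood at 2.90 to 3.28 FPKM in the controls and at 2.99, 3.36 and 1.19 FPKM in the YOD1 libraries (log2 fold change -0.29, limma adjusted p = 0.508).

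Among the Deltex ligases related to Dtx3l, 3 of 4 were tested and 0 passed, against 0.479% of all tested genes. Dtx4 stood at 9.90, 9.78 and 7.33 FPKM in the controls and at 6.54, 5.73 and 5.02 FPKM in the YOD1 libraries (log2 fold change -0.56, limma adjusted p = 0.133). Dtx2 and Dtx3 had log2 fold changes of -0.06 and 0.03. None of the 3 had its highest value in YOD1 library 2, where 12% of all tested genes did. Of 11 tested genes of NAD synthesis and salvage 0 passed limma as well, and the median was -0.05. At an unadjusted p under 0.05 in limma 1 was higher and 0 lower, against 20.9% of all tested genes (7.87% higher). Nampt, the rate-limiting enzyme of NAD salvage, stood at 7.78, 5.84 and 6.82 FPKM in the controls and at 4.79, 6.78 and 3.06 FPKM in the YOD1 libraries (log2 fold change -0.45, limma adjusted p = 0.287). Nnmt, which methylates nicotinamide, stood at 0.860, 0.895 and 1.49 FPKM in the controls and at 2.79, 1.75 and 2.14 FPKM in the YOD1 libraries (log2 fold change 0.63, limma adjusted p = 0.128). Nmnat3, a mitochondrial NAD synthase, differed by 0.39 on the log2 scale (adjusted p = 0.270 in limma).

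Most other interferon-stimulated genes were high in library 2 as well. In a list of 30 such genes, chosen with these data known, 19 were tested. Of these 19, 18 had their highest value in YOD1 library 2, against 12% of all tested genes. For 16 every YOD1 library lay above every control, against 9.77% of all tested genes. The 2 of this list that passed limma over all genes were Psmb8, an immunoproteasome subunit, and Bst2, the antiviral tether (log2 fold change 1.45 and 1.37, limma adjusted p = 0.0142 and 0.0226). Limma called 0.444% of all tested genes higher. Isg15, a ubiquitin-like modifier, stood at 6.03 to 7.91 FPKM in the controls and at 23.4, 112 and 33.3 FPKM in YOD1 libraries 1, 2 and 3 (limma adjusted p = 0.0501). Oas1a and Oasl2, of the oligoadenylate synthetase family, had log2 fold changes of 1.99 and 1.80 (limma adjusted p = 0.0584 and 0.126). Without YOD1 library 2 the median log2 fold change of that list was 0.78, while it was 1.27 with all libraries. Among 13 tested genes of interferon signalling Irf7, a transcription factor of interferon induction, passed (log2 fold change 3.47, limma adjusted p = 0.00534), and the median was -0.06. Usp18, which removes ISG15 and dampens the receptor, differed by 2.84 on the log2 scale (adjusted p = 0.0759 in limma).

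The genes whose values followed the members most closely over the 6 libraries were taken from all tested genes by Pearson correlation of log2(FPKM + 1), as a description of libraries that share their scaling and the high values of library 2. Among the closest to Dtx3l were Rnf213, Trim25, Dusp7 and Igha (r from 0.969 to 0.995), and among the closest to Parp9 were Rnf213, Eif2ak2 and Trim25 (r from 0.953 to 0.981). Rnf213, a giant ubiquitin ligase, stood at 6.25, 8.64 and 6.75 FPKM in the controls and at 6.70, 32.3 and 3.94 FPKM in YOD1 libraries 1, 2 and 3, the same order of YOD1 libraries as in Dtx3l. Trim25, the ubiquitin ligase that works with ZAP, stood at 17.2, 18.9 and 17.7 FPKM in the controls and at 19.0, 39.5 and 14.9 FPKM in the YOD1 libraries. For Parp14 the closest were Adar, 2310033P09Rik, Helz2, Xaf1 and Ddx58 (r from 0.968 to 0.992), and among the closest to Zc3hav1 were Tm9sf1, Tor1aip1, Clcn5 and Zbtb7a (r from 0.986 to 0.991). Without YOD1 library 2, over 5 libraries, r was 0.985 between Dtx3l and Rnf213 and 0.759 between Parp14 and Ddx58.

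Among the 28 pairs of the 8 genes, correlations often changed when library 2 was left out. Parp9 and Dtx3l had r = 0.978 over 6 libraries and 0.870 over the 5 others, and Dtx3l and Zc3hav1 had 0.930 and 0.907. Parp12 and Parp14 had r = 0.955 over 6 libraries and 0.548 over 5, where Parp1 and Dtx3l had 0.610 and Parp1 and Parp11 had 0.726. Parp9 and Parp12 had r = 0.794 over 6 libraries and -0.668 over 5, so the positive r of this pair rested on library 2.

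Of the 8 genes, 0 are marked as significant in the authors' deposited table, which does mark Yod1 (q = 0.031). The share of all genes so marked was not counted, so the 0 is no result about these 8 genes. The authors' deposited table lists Parp12 with a log2 fold of 1.63 and q = 0.205, Parp14 with 1.52 and q = 0.324, and Parp10 with 0.48 and q = 0.351. For the other 5 genes the authors' deposited table gives q from 0.887 to 0.970. These folds are ratios of mean FPKM and give YOD1 library 2 more weight than the log2 means above.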

How the data were processed

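Per the labels' protocols, poly(A) RNA of 6 TCMK1 samples (3 control, 3 YOD1 overexpression, all with Ang II) was sequenced as paired ends. Per the file headers, FPKM of every gene in every library stand in the 1 table the authors deposited. Tools named in the submitters' processing notes are Bowtie 0.12.2, StringTie 1.3.0 and HISAT2 2.0, with mm8 as build and no roles. The authors' deposited columns also give a fold (ratio), a log2 fold, a p-value and a q-value, per the file headers, and their test is not stated in the sources used.

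The design foresaw limma for an FPKM table. Values were set to log2(FPKM + 1), 11483 of 28789 genes reached the minimum (1 FPKM in 3 or more of the 6 libraries), and limma 3.58.1 (R 4.3.3) compared the groups (variances moderated along an intensity trend, two-sided test, Benjamini-Hochberg over all tested genes). Fold changes are on that scale, which understates changes of low genes. The code was tested on simulated data. Read depth cannot be had from FPKM, so precision comes only from the spread of 3 libraries. Transcript lengths and GC came from GENCODE M21 (99.2% of tested genes matched by transcript) and were corrected with splines of 4 degrees of freedom. M21 and the RefSeq promoter table are on GRCm38, not mm8. The members and lists were chosen with earlier results of these data known, so no list was tested. Named genes were all members, per list the called genes and the 3 of largest change, and the 5 genes most like Parp9, Dtx3l, Parp14 and Zc3hav1; other genes (neighbours on chromosome 16, Plec, the further PARP family genes and the single markers) were named after their values were seen. Some genes that this rule names are not reported here. Python 3.11.15, numpy 2.4.6, pandas 2.3.3, scipy 1.17.1 and matplotlib 3.10.9 were used.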

Additional observations from a re-analysis of the deposited data

How the results depend on the processing

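In every setting tried (no filter, a filter at 5 FPKM, a pseudocount of 0.1, the replicate block, no intensity trend, a minimum size of 1 on the log2 scale, median-ratio scaling, rRNA genes left out, length and GC correction, and each library left out) limma called 0 of the members higher and 0 lower. The members that could be called were all 8 with no filter, 3 with the filter at 5 FPKM and 6 in the other settings. With 3 libraries per group and FPKM of unknown depth, only differences that were wide against the spread of the libraries could pass. In limma Bst2 passed with a log2 fold change of 1.37 (adjusted p = 0.0226), while Usp18 with 2.84 did not (adjusted p = 0.0759). Over all tested genes the calls were 51 higher and 4 lower, and 0 and 0 with no filter, 141 and 8 with median-ratio scaling, 28 and 4 with rRNA genes left out, and 26 and 7 after length and GC correction. With the minimum size of 1 they were 45 and 2. When 1 library was left out they ranged from 17 to 145 higher and from 1 to 97 lower, with the most without control 3 (145 and 97) and without YOD1 library 3 (107 and 25) and the fewest higher without control 2 (17). The adjusted p of Parp12 lay between 0.105 and 0.468 over the settings that tested it. Zc3hav1 changed sign with median-ratio scaling (0.045) and after length and GC correction (0.189). With 1 library left out, the log2 fold change ranged from -0.344 to 0.309 for Parp9, -0.279 to 0.551 for Dtx3l, -0.317 to 0.213 for Zc3hav1 and -0.007 to 0.181 for Parp11. Parp1, Parp10, Parp12 and Parp14 kept their sign throughout. The cause of these changes was not tested. The median log2 fold change of the 8 genes was 0.136 in the main setting. Over the settings that give a median it ranged from -0.063 (without YOD1 library 2) to 0.353 (without YOD1 library 3). It was below 0 only without YOD1 library 2. These shifts were under 0.672, the SD between replicates of the genes' median level. That SD includes the high values of library 2, so it is too wide to judge them by. The settings for the median of the other PARP family genes and the list medians without YOD1 library 2 were chosen after seeing the data.

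The labels number the libraries 1 to 3 in both groups, and nothing says that a number marks a shared culture. Deviations from the group means correlated at 0.296, -0.121 and -0.112 for the same-numbered pairs, so the numbers were not taken as pairs, and not every library correlated best with its own number. With the replicate block limma called 33 genes higher and 8 lower and 0 members.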
